A study of Mus musculus with 54 samples.

Results

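The macrophage marker genes Aif1, Csf1r, Cd68, Cd14, Lyz2, C1qa, C1qb, C1qc, Mrc1 and Cd163, were followed through every genotype and cell preparation of a mouse study of CTCF and BORIS, a paralog of CTCF expressed in testis. They make up 10 of the 23284 genes in the whole testis count table, and all 10 were found by symbol in both count tables. The genes were chosen from measured values, since earlier results from these same libraries were known, among them the whole testis comparisons between mutants and wild type. Values from those whole testis comparisons are therefore a description: the calls counted there stand beside the share of all genes called, and no support is drawn from how many of the genes moved. Earlier results of the sorted libraries were known as well, so the adjusted p-values given for sorted cells are also descriptive.

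Macrophages live in the interstitium of the testis, beside the testosterone-producing Leydig cells, and at the surface of the seminiferous tubules. They depend on colony stimulating factor 1, which signals through the receptor encoded by Csf1r, and they clear debris and sample microbial products with scavenger and pattern receptors such as those encoded by Mrc1, Cd163 and Cd14. They also make C1q, the recognition molecule of the classical complement pathway, which is assembled from the products of C1qa, C1qb and C1qc.

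RNA was taken from C57BL/6 mice at 3 months of age. The groups were WT (Ctcf+/+ Boris+/+), CTCF HET (Ctcf+/-), BORIS KO (Boris-/-) and the compound mutant, CM (Ctcf+/- Boris-/-), in which Ctcf is heterozygous because its full loss is lethal in the embryo. The preparation named whole testis here was enriched for germ cells: decapsulated testes were digested with collagenase and trypsin, a treatment that takes interstitial tissue apart, and 4 mice were pooled in each of 3 preparations per genotype. Round spermatids and spermatocytes were sorted, with 3 libraries per genotype except for WT spermatocytes, which had 2, and ChIP-seq peak lists for CTCF, BORIS, RNA polymerase II (Pol2) and H3K4me3 came from the germ cell-enriched preparation of WT and, without BORIS, of CM.

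Whole testis libraries held 10437683 to 42055813 counts, and sorted libraries 47740650 to 98545423. Ctcf stood at 39.9 to 47.0 CPM (counts relative to TMM-scaled library size) in WT whole testis, while CTCF HET held 22.3 to 30.2 CPM and CM 24.04 to 27.4 CPM. Ctcfl, the gene for BORIS, stood at 0.531 to 0.688 CPM in WT whole testis while BORIS KO held 0.165 to 0.397 CPM and CM 0.122 to 0.201 CPM. In the sorted libraries labelled CM, Ctcf was not lower than in WT (39.5 to 172 against 29.4 to 48.7 CPM in round spermatids, and 33.0 to 85.9 against 33.3 to 35.2 in spermatocytes), so this check did not separate the libraries labelled CM from WT there. Ctcfl in round spermatids was 1.11 to 2.55 CPM in the libraries labelled CM and 2.84 to 5.12 in WT. A CPM compares one gene between libraries, not one gene with another.

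Per kilobase of annotated exon, Aif1 was by far the most abundant of the 10 in WT whole testis, at 316 ± 54.2 CPM per kb (SD, n = 3). Lyz2 followed at 20.3 ± 14.3 and C1qb at 14.03 ± 7.07 CPM per kb, and these neighbours overlapped within their spread. C1qa (6.56 ± 1.47), Mrc1 (5.82 ± 2.47), C1qc (5.70 ± 2.80) and Csf1r (5.32 ± 2.63 CPM per kb) could not be ordered beyond their spread. Cd163 (0.830 ± 0.407), Cd68 (0.668 ± 0.194) and Cd14 (0.491 ± 0.0791 CPM per kb) were the least abundant.

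Aif1 encodes allograft inflammatory factor 1, also called IBA1, a calcium- and actin-binding protein that is widely used to stain macrophages and microglia. In whole testis it ran opposite to the other 9 genes. It stood at 450, 579 and 423 CPM in WT replicates 1 to 3, at 356, 440 and 499 CPM in CTCF HET, and at 386, 488 and 492 CPM in BORIS KO. In CM it stood at 105, 333 and 278 CPM, below every library of the other genotypes, with replicate 1 the lowest of all 12. The CM mean was 49.3% of the WT mean (239 ± 119 against 484 ± 83.0 CPM, SD, n = 3), and the fitted log2 fold change was -1.04 ± 0.41 (SE).

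In the sorted cells Aif1 was a gene of round spermatids. WT round spermatids held 85.1, 81.8 and 94.3 CPM (3821 to 7539 counts), while WT spermatocytes held 2.38 and 1.98 CPM (181 and 150 counts). The groups were far apart, with a log2 fold change of 5.34 ± 0.16 (SE) and an edgeR adjusted p of 2.56e-07. Aif1 was chosen with earlier results of these libraries known, so this p-value is a description. Across all genes 70.0% were called in this comparison, where called means an adjusted p below 0.05 by edgeR's quasi-likelihood test with Benjamini-Hochberg adjustment. Of the 10 genes, 4 were called and 3 were not tested for low counts. Besides Aif1, these were Csf1r (13, 30 and 14 counts in round spermatids against 1 and 0), Mrc1 (42 to 98 against 39 and 42 counts) and, in the other direction, Lyz2 (0 to 5 against 15 and 20 counts). DESeq2 called 3 of them, without Lyz2. Csf1r and Lyz2 passed the filter on low counts only through the cell type where they are high. Their calls were thus close to fixed in advance, and no support is drawn from them. Apart from Aif1, no WT library of either cell type held more than 98 counts of these genes.

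In round spermatids Aif1 was lower in CTCF HET, at 60.5, 64.1 and 56.6 CPM, all below the 3 WT libraries. The log2 fold change was -0.51 ± 0.11 (SE, edgeR adjusted p = 0.0142), and 22.3% of all genes were called in the same comparison. The call was lost without WT replicate 3 (adjusted p = 0.0712), CTCF HET replicate 1 (0.0725) or CTCF HET replicate 3 (0.0531), and in a fit over all genotypes (0.308), while the log2 fold change stayed between -0.44 and -0.56. The sum of 8 spermatid genes, named below, was lower too, at 989 to 1064 CPM against 1383 to 1513 in WT, with 5 of 8 called lower, and Aif1 amounted to 5.69 to 6.48% of it against 5.41 to 6.27%. The part of these markers in the Aif1 value was not tested. In BORIS KO round spermatids Aif1 stood at 77.2, 82.6 and 102 CPM, which overlapped WT (log2 fold change 0.04 ± 0.11, SE, edgeR adjusted p = 0.804), although 55.8% of all genes were called there.

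The round spermatid libraries labelled CM had the lowest Aif1, at 53.7, 21.1 and 33.7 CPM, each below every library of the other genotypes. The log2 fold change against WT was -1.20 ± 0.30 (SE), but the edgeR adjusted p was 0.151 in a comparison that called 1 gene of 15298, or 0.00654%. DESeq2, which called 13.9% of genes in the same libraries, gave Aif1 an adjusted p of 0.00744, the fit over all genotypes 0.0113, and the edgeR fit without replicate 1 of those labelled CM, the library with 172 CPM of Ctcf, 0.0435. Of the 10 genes 6 were tested there and edgeR called 0, while 1 had an unadjusted p below 0.05 and DESeq2 called 1, in both cases Aif1. In the 3 libraries labelled CM the sum of 7 spermatogonial genes was 37.2 to 356 CPM, against 23.5 to 30.0 in WT, and that of 8 spermatocyte genes 2377 to 3440 CPM, against 2080 to 2522. No gene of these lists was called by edgeR, and their part in the Aif1 value was not tested.

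In spermatocytes Aif1 was rare in every genotype. BORIS KO held 2.96, 3.25 and 3.29 CPM, above both WT libraries, with a log2 fold change of 0.53 ± 0.14 (SE, edgeR adjusted p = 0.00651) where 57.2% of all genes were called. The call was lost without WT replicate 2 (adjusted p = 0.0825) and in the fit over all genotypes (0.700). The spermatid sum was 53.1 to 70.8 CPM in these libraries, against 42.8 in both WT libraries, with 2 of the 8 genes called higher, and Aif1 amounted to 4.18 to 6.20% of it against 4.64 to 5.56%. Their part was not tested either. CTCF HET held 3.87, 2.16 and 1.96 CPM and overlapped WT. The spermatid sum there was 60.4 to 102 CPM, and Aif1 amounted to 2.11 to 4.12% of it, below both WT libraries. Of the spermatid genes Acrv1, Prm1 and Spaca1 were called higher, where 15.5% of all genes were called. The libraries labelled CM held 2.21, 2.94 and 7.81 CPM, with the highest value in replicate 3, whose summed level of 8 spermatid markers was also the highest among spermatocyte libraries (122 CPM, against 41.6 to 102 in the other 10). The part of those markers in the Aif1 value was not tested.

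**Figure D1:**
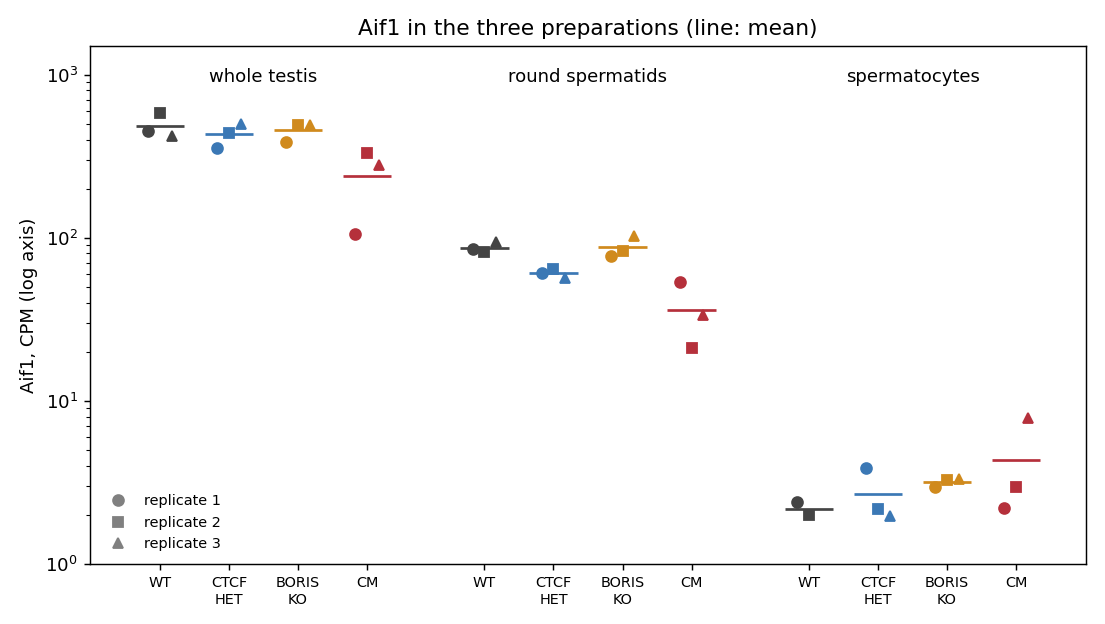
Aif1 level in CPM on a log axis in every library of the germ cell-enriched whole testis preparation, round spermatids and spermatocytes, by genotype. Points are libraries, shaped by replicate number, and lines are group means. The whole testis and sorted tables were normalised separately. CM lies lowest in whole testis (105 to 333 CPM), the libraries labelled CM lie lowest in round spermatids (21.1 to 53.7 CPM), and spermatocytes lie at 1.96 to 7.81 CPM in every genotype.

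Spermatid markers were lower together with Aif1 in CM whole testis and in round spermatids labelled CM. The summed level of 8 spermatid genes (Acrv1, Tnp1, Tnp2, Prm1, Prm2, Spaca1, Tssk1 and Gapdhs) was 15046 to 22554 CPM in WT whole testis and 4758 to 12450 CPM in CM, and no marker was at 0. Set against that sum, Aif1 amounted to 1.88 to 3.85% in WT and 2.21 to 3.29% in CM whole testis, with CTCF HET at 1.88 to 2.99% and BORIS KO at 2.01 to 2.71%. The CM range lay inside the WT range. In round spermatids the sum was 1383 to 1513 CPM in WT and 542 to 840 CPM in the libraries labelled CM, and Aif1 amounted to 5.41 to 6.27% of it in WT and 2.78 to 6.39% in those labelled CM. In BORIS KO round spermatids the sum was 959 to 1638 CPM and Aif1 amounted to 6.22 to 8.35% of it, while Aif1 itself overlapped WT. Acrv1 and Spaca1 were called lower there and Tnp2 and Tssk1 higher, where 55.8% of all genes were called. In these bulk samples, fewer cells of a type and less RNA per cell cannot be told apart.

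Aif1 lies at chr17:35307936-35313013 of mm9 on the minus strand, with 8 annotated transcripts and 6 start sites, the longest transcript starting at 35312946. It was the one gene of the 10 with Pol2 and H3K4me3 at its promoter (within 1 kb of a start) in WT, where 40.2% and 52.5% of all genes had such peaks. The WT Pol2 peak spanned chr17:35309049-35313792 with a score of 1648 (96.0th percentile of its list) and covered 5 of the 6 starts. In CM the same stretch held 2 Pol2 peaks, one over the longest transcript's start with a score of 341 (77.6th percentile) and one over the internal starts with a score of 204 (67.2nd percentile). H3K4me3 in WT covered the start of the longest transcript, with a score of 398 (85.9th percentile), and further in with a score of 62.2 (14.8th percentile). In CM H3K4me3 had scores of 211 and 180 (53.9th and 49.1st percentiles). Scores, heights and percentiles come from lists that were not scaled to each other and differ in length (Pol2 25192 peaks in WT and 28407 in CM, H3K4me3 34347 and 20432, CTCF 34625 and 21525), so no difference in peak size between WT and CM is read from them.

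A CTCF peak lay on each side of Aif1, outside the gene, and both were listed in WT and CM. The upstream peak, with its summit at -2670 bp from the nearest start, had a height of 2363 in WT (87.9th percentile) and was also listed for BORIS with a height of 51 (22.3rd percentile). In CM its CTCF height was listed as 286 (45.2nd percentile). The downstream peak had a height of 544 in WT (52.4th percentile) and 346 in CM (55.4th percentile). Both windows below are 201 bases of the mm9 plus strand centred on the WT summit, and they are shown because they are the CTCF sites nearest to the gene of the list that is active in spermatids. Capitals mark the best match to the CTCF core motif on either strand, with 12 of 12 letters matched upstream and 11 of 12 downstream. At least 10 letters matched in 80.9% of windows at all 34625 WT CTCF summits, and in 23.4% of windows of the same length at the starts of all protein-coding genes.
Aif1 upstream, chr17:35315583-35315783: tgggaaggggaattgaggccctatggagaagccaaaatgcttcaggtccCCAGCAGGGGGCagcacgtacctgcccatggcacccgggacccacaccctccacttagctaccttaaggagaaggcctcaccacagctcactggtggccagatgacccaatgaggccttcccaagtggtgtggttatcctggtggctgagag
Aif1 downstream, chr17:35305817-35306017: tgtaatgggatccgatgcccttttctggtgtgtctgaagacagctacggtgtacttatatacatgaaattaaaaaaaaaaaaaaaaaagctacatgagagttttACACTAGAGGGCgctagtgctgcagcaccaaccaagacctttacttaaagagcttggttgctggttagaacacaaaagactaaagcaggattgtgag

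**Figure D2:**
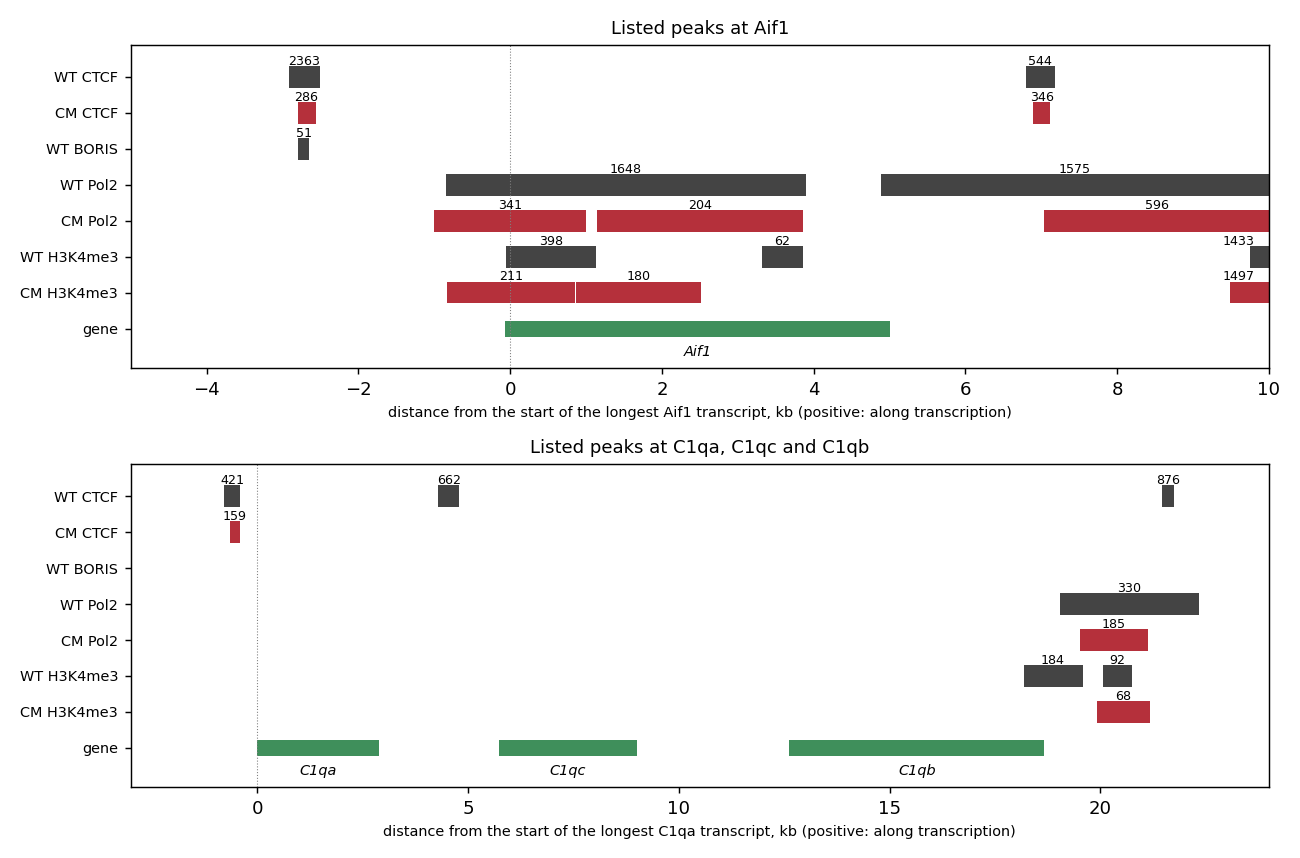
Listed ChIP-seq peaks around Aif1 (top) and around C1qa, C1qc and C1qb (bottom), against distance in kb from the start of the longest Aif1 or C1qa transcript, positive along transcription. Each bar spans a peak of the list named at the left, the number above it is its height (CTCF, BORIS) or score (Pol2, H3K4me3), and green bars are genes. Peaks that run past the panel are clipped. Aif1 has Pol2 and H3K4me3 over its starts in both genotypes, and the C1q genes have CTCF peaks but no Pol2 or H3K4me3 peak at their starts.

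The other 9 genes were compared next in whole testis. In CM against WT their log2 fold changes were all above 0. They ran from 1.57 to 2.19 with a median of 2.05, beside a median of 0.00349 over all 16378 genes tested. Of the 10 genes 8, all but Lyz2 and Aif1, were called higher, where 16.4% of genes were called higher and 25.2% were called in either direction. For 7 of the 10, every CM library lay above every WT library, against 25.8% of all genes. These counts describe the values by which the list was chosen.

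The calls depended on single libraries. Leaving out WT replicate 2, WT replicate 3 or CM replicate 3 left none of the 10 called, and 6, 7 and 9 were called without WT replicate 1, CM replicate 1 and CM replicate 2. The 9 log2 fold changes remained between 1.29 and 2.72 throughout. Same-numbered whole testis libraries deviated together, and with the replicate number as a block all 10 genes were called, Aif1 lower and 9 higher, where 43.0% of all genes were called. DESeq2 also called all 10, where 33.1% were.

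Csf1r, the receptor for colony stimulating factor 1 and interleukin 34, stood at 43.2, 23.5 and 16.8 CPM in WT replicates 1 to 3. It stood at 43.5, 28.9 and 36.5 CPM in CTCF HET, 44.1, 44.7 and 54.6 CPM in BORIS KO, and 179, 62.1 and 135 CPM in CM. All 3 CM libraries were above the other 9, with replicate 2 the closest to them. The log2 fold change of CM against WT was 2.14 ± 0.43 (SE).

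The scavenger receptor genes were highest on average in CM. Mrc1, the mannose receptor CD206 of resident macrophages, stood at 51.5, 27.4 and 24.9 CPM in WT and at 120, 67.3 and 126 CPM in CM, a log2 fold change of 1.57 ± 0.34 (SE). Cd163, which takes up haemoglobin bound to haptoglobin, stood at 5.54, 3.75 and 1.89 CPM in WT and at 21.7, 8.74 and 16.6 CPM in CM, a log2 fold change of 2.02 ± 0.44 (SE). For both genes CM did not overlap WT. CTCF HET overlapped WT for both (30.3 to 37.0 CPM of Mrc1 and 1.98 to 5.52 CPM of Cd163). BORIS KO, at 41.1 to 61.6 CPM of Mrc1 and 4.76 to 9.13 CPM of Cd163, overlapped WT for both genes and CM for Cd163.

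Cd68, a lysosomal glycoprotein, and Cd14, the co-receptor that hands lipopolysaccharide to Toll-like receptor 4, were scarce. Cd68 stood at 1.12, 0.712 and 0.688 CPM in WT and at 5.09, 1.10 and 3.27 CPM in CM, so that CM replicate 2 fell just under WT replicate 1 and the groups overlapped. Cd14 stood at 0.914, 0.712 and 0.688 CPM in WT and at 3.56, 1.41 and 5.37 CPM in CM, without overlap. Their log2 fold changes were 1.84 ± 0.53 and 2.09 ± 0.50 (SE). A level of 3 counts corresponded to 0.0753 to 0.296 CPM in these libraries, which bounds what they could resolve by counting error alone.

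Lyz2, lysozyme of macrophages and other myeloid cells, varied most between replicates. It stood at 44.9, 27.9 and 7.31 CPM in WT and at 248, 42.9 and 83.1 CPM in CM, where replicate 2 fell below WT replicate 1. The log2 fold change was the largest of the 10 at 2.19 ± 0.71 (SE), but the gene was not called except with the replicate block, DESeq2, the fit over all genotypes or the fit without CM replicate 2. Its neighbour Lyz1 is a close paralog, and how the authors' counting divided reads between them is not given in the sources used here. Lyz1 was listed at 0.568 ± 0.399 CPM in WT and 2.02 ± 1.93 in CM (SD, n = 3).

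The genes for the 3 chains of C1q were all called higher in CM. C1qa stood at 8.49, 6.47 and 5.50 CPM in WT and at 34.4, 15.9 and 36.9 CPM in CM. C1qb stood at 23.9, 12.6 and 9.29 CPM in WT and at 121, 26.5 and 56.2 CPM in CM, and C1qc at 17.1, 9.25 and 6.71 CPM in WT and at 61.1, 20.9 and 53.8 CPM in CM. No CM library fell within the WT range for any of them, and the log2 fold changes were 2.05 ± 0.35, 2.11 ± 0.53 and 2.00 ± 0.44 (SE). CM replicate 2 was the lowest CM library for all 3.

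**Figure D3:**
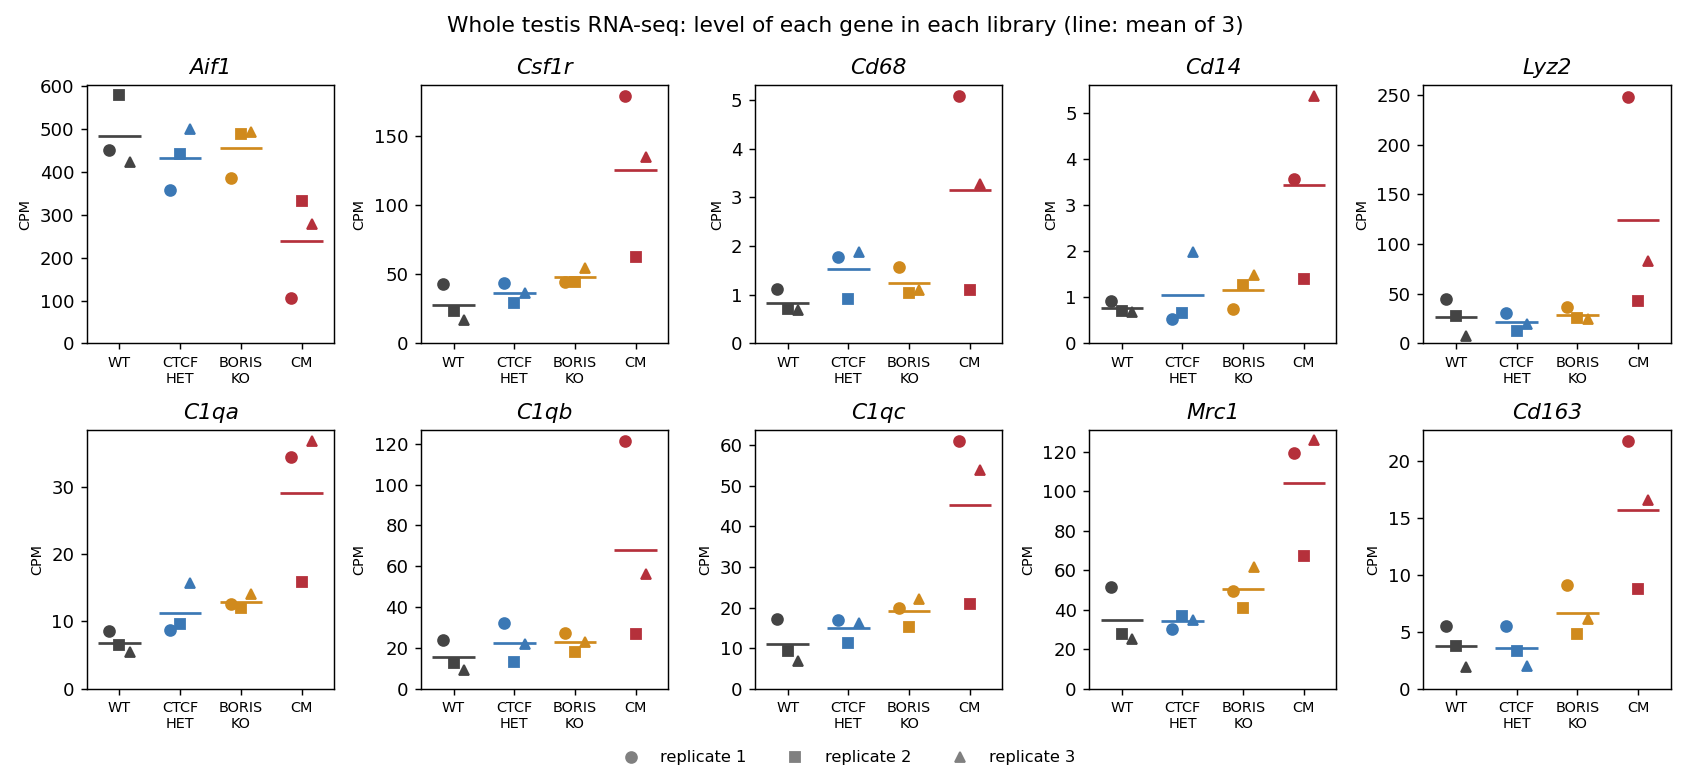
Level in CPM of each of the 10 genes in the 12 whole testis libraries, 1 panel per gene with its own axis from 0. Points are libraries, shaped by replicate number, and lines are means of 3. Aif1 lies lowest in CM (105 to 333 CPM against 423 to 579 in WT), and the other 9 genes have their highest libraries in CM, with CM replicate 2 nearest to the other genotypes.

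The single mutants were described in the same way. Against WT, CTCF HET had no gene of the 10 called by edgeR, where 0.00621% of all genes passed. For 1 gene (C1qa) the unadjusted p was below 0.05, and DESeq2 called 0. The 9 log2 fold changes ran from -0.30 to 0.82. C1qa stood at 8.64, 9.54 and 15.7 CPM, each above all 3 WT libraries, and was the only gene of the 10 to do so.

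BORIS KO had log2 fold changes above 0 for all 9 genes, from 0.12 for Lyz2 to 0.92 for C1qa, with a median of 0.58 beside 0.0268 over all 16344 genes tested. EdgeR called 0 of the 10, where 0.0551% of all genes were called, and for 4 the unadjusted p was below 0.05. C1qa stood at 12.7, 11.99 and 14.1 CPM and Csf1r at 44.1 to 54.6 CPM, each above all WT libraries, although for Csf1r the margin over WT replicate 1 (43.2 CPM) was narrow. With the replicate block 1 gene, C1qa, was called, where 6.59% of all genes were, and DESeq2 called the same 1 gene, where 2.41% were.

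CM was also set against each single mutant, comparisons that share the CM libraries with the one above. Against CTCF HET, 6 of the 10 genes were called, all higher (Csf1r, Lyz2, C1qa, C1qc, Mrc1 and Cd163), where 15.5% of all genes were called, and none was called without CTCF HET replicate 2, CTCF HET replicate 3 or CM replicate 3. With the replicate block 9 were called, 8 higher and Aif1 lower, where 43.0% of all genes were, and DESeq2 called 8, where 24.3% were. The log2 fold changes of the 9 ran from 1.01 for Cd68 to 2.48 for Lyz2. Against BORIS KO they ran from 1.00 for Mrc1 to 2.07 for Lyz2. No gene of the 10 was called there by edgeR, where 0.00600% of all genes were, although all 10 had an unadjusted p below 0.05. With the replicate block 8 were called, where 7.36% were, DESeq2 called 8, where 7.66% were, and 9 were called without CM replicate 2. Aif1 was lower in both comparisons, at -0.89 ± 0.41 against CTCF HET and -0.96 ± 0.41 against BORIS KO (log2, SE).

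**Figure D4:**
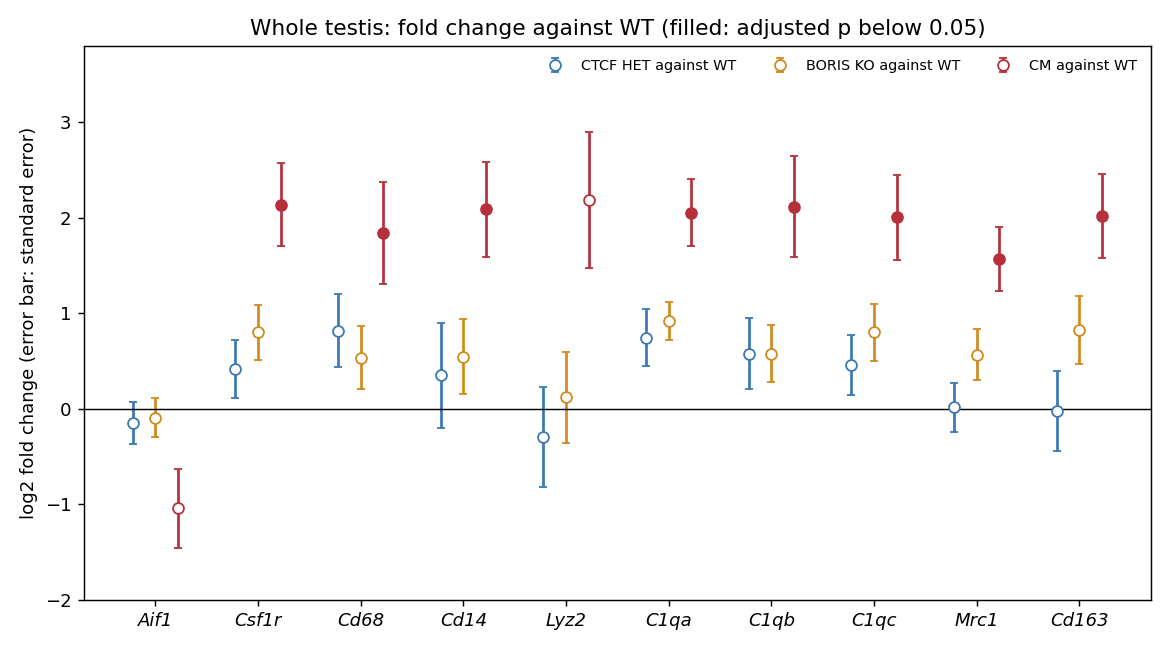
Log2 fold change of each of the 10 genes in CTCF HET, BORIS KO and CM whole testis against WT, with standard errors as bars. Filled points had an adjusted p below 0.05 by edgeR, and the 3 comparisons share the WT libraries. In CM 9 genes lie at 1.57 to 2.19, and Aif1 at -1.04.

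Other genes known from macrophages were looked at as lists, which were chosen with earlier results of these data known. In CM against WT, 16.4% of all genes were called higher. Of 26 further macrophage genes in the table, 24 were tested and 19 were called higher in CM than in WT, and none lower, with a median log2 fold change of 1.90. Among them were Ctss, a lysosomal protease that trims the invariant chain (2.17 ± 0.36), Emr1, the gene for F4/80 (1.48 ± 0.30), and Pf4 (2.47 ± 0.52, log2, SE). Its sum was 47.7 to 349 CPM in the sorted germ cells, and most of it came from 1 gene, Fcgr3 (38.8 to 296 CPM). Without Fcgr3 the sum was 7.96 to 53.4 CPM in sorted libraries. In whole testis it was 94.3 to 251 CPM in WT and 323 to 1088 CPM in CM. Whole testis libraries were of another type and scaled separately, so the sums are not compared between preparations. Fcgr3 itself had a log2 fold change of 0.06 ± 0.70 (SE) in CM against WT whole testis. Tyrobp was at 0 in every sorted library, and 3 of the 26 genes were at 0 throughout each sorted cell type.

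Beside 16.4% of all genes, 4 of 7 genes for antigen presentation by MHC class II were called higher. They were Cd74, the invariant chain (3.00 ± 0.44), and the class II chains H2-Aa (3.04 ± 0.50), H2-Eb1 (2.66 ± 0.58) and H2-Ab1 (1.88 ± 0.43, log2, SE). The other 3 were not called, with Ciita, the class II transactivator, at 1.33 ± 0.52 and the peptide-loading genes H2-DMa and H2-DMb1 at 0.39 ± 0.45 and -0.20 ± 0.38.

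Around Csf1r, 5 of 7 genes of its axis were called higher, Csf1r included, where 16.4% of all genes were. Csf1, one of its ligands, had a log2 fold change of 2.12 ± 0.52 (SE), and the transcription factor genes Cebpa and Runx1 had 1.39 ± 0.32 and 1.57 ± 0.43. Around C1q, 9 of 13 complement genes were called higher and none lower, beside the same 16.4%. These included C3, the central component (2.74 ± 0.30), C2 (2.65 ± 0.39), C1ra, a protease of the C1 complex (2.05 ± 0.42), and Cfb of the alternative pathway (2.06 ± 0.45, log2, SE).

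Around Cd14, 3 of 7 tested genes of the Toll-like receptor complex were called higher: Lbp, which carries lipopolysaccharide to CD14 (2.47 ± 0.45), Tlr4, its receptor (1.85 ± 0.50), and the adaptor gene Ticam1 (1.71 ± 0.48, log2, SE). Tlr2 was not called, at 2.23 ± 0.78, and 16.4% of all genes were called higher.

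Few genes of other blood cells could be tested, in a comparison where 25.2% of all genes were called. Of 4 tested genes of T, B and natural killer cells none was called. The largest log2 fold change, that of Cd4, was 1.65 ± 0.68 (SE), within the 1.57 to 2.19 of the 9 macrophage genes. The sum over 12 genes of this list was 9.11 to 11.4 CPM in WT and 11.2 to 19.0 in CM. It was 13.2 to 16.6 CPM in BORIS KO, above every WT library. For neutrophils none of 2 tested genes was called (sum 4.66 to 6.52 CPM in WT and 5.64 to 6.61 in CM). No mast cell gene passed the filter on low counts, and 2 red blood cell genes were tested and not called, with Hbb-b2, Hba-a1 and Hba-a2 at 0 counts in all 12 libraries.

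Leydig and Sertoli cell genes were higher in CM whole testis, as the macrophage genes were. The sum of the 9 macrophage genes was 73.8 to 197 CPM in WT and 247 to 793 CPM in CM. The sum of 8 Leydig cell genes was 374 to 673 CPM in WT and 1942 to 3917 CPM in CM, with 6 of 8 called higher, among them Cyp17a1 and Cyp11a1 of steroid synthesis (2.70 ± 0.31 and 2.54 ± 0.34, log2, SE). The sum of 8 Sertoli cell genes was 197 to 316 CPM in WT and 519 to 1087 CPM in CM, with 5 of 8 called higher, and for Clu the log2 fold change was 1.73 ± 0.31 (SE). Of the other lists, 1 of 6 endothelial, 1 of 5 peritubular myoid and 2 of 7 spermatogonial genes were called higher, beside 16.4% of all genes. BORIS KO differed between the lists. Its Leydig sum was 787 to 1516 CPM and its Sertoli sum 385 to 449 CPM, both above every WT library. The macrophage sum in BORIS KO, 164 to 208 CPM, overlapped WT.

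Spermatid genes went the other way. Of 8 spermatid genes, 3 were called lower in CM, namely Gapdhs, a sperm glycolytic enzyme (-1.52 ± 0.23), the protamine gene Prm2 (-1.27 ± 0.31) and Acrv1 of the acrosome (-0.78 ± 0.21, log2, SE), where 8.80% of all genes were called lower. None of 8 spermatocyte genes was called. None of the marker genes in the macrophage, Leydig, Sertoli or germ cell lists was at 0 in every whole testis library. The part of any other cell type in the values of the macrophage genes was not tested.

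**Figure D5:**
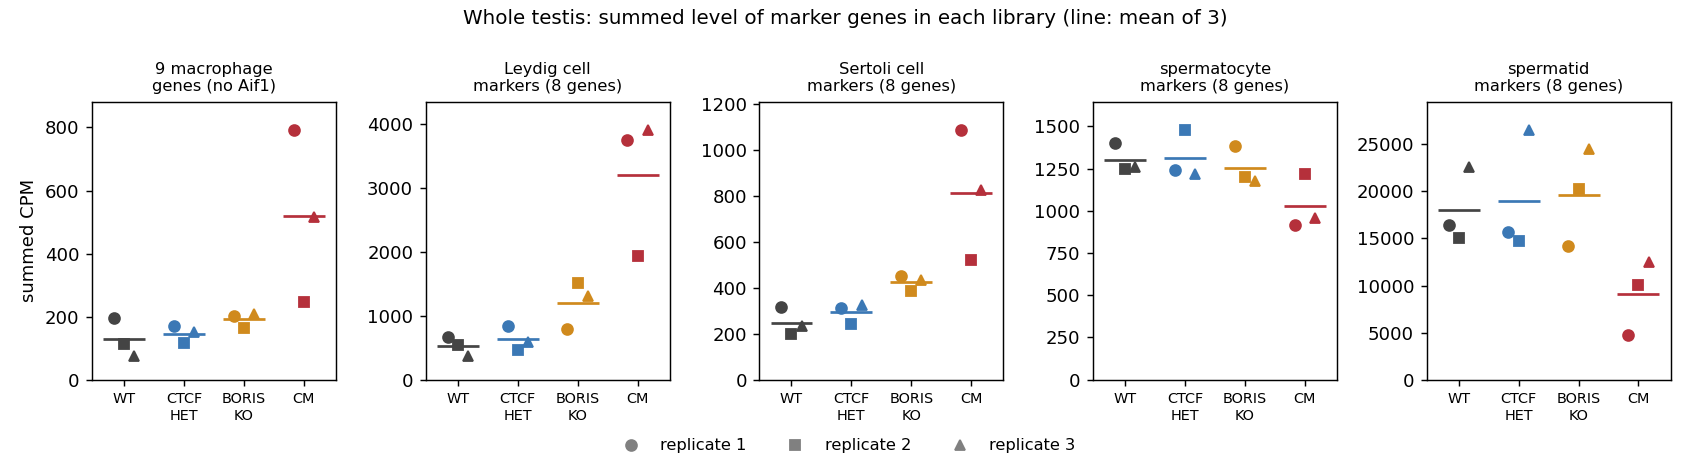
Summed level in CPM of marker genes in each of the 12 whole testis libraries, 1 panel per list with its own axis from 0. Points are libraries, shaped by replicate number, and lines are means of 3. In CM the 9 macrophage genes (247 to 793 CPM), Leydig and Sertoli cell genes lie above WT, and spermatid genes (4758 to 12450 CPM) lie below it. BORIS KO lies above WT for Leydig and Sertoli cell genes and overlaps it for the macrophage genes.

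Within CM, the libraries differed in the same direction for most genes. Replicate 1 was the highest of the 12 whole testis libraries for 6 of the 9 macrophage genes and replicate 3 for the other 3, and both were among the top 3 for all 9. CM replicate 1, the deepest CM library (33899173 counts), also had the lowest Aif1 and the lowest spermatid sum. WT replicate 3 was the lowest of the 12 for 8 of the 9 genes. Over the 12 libraries, which share genotypes and replicate numbers, Pearson's r of log2 CPM between pairs of the 9 genes was 0.61 to 0.99 (median 0.89, 36 pairs), and between Aif1 and each of them -0.87 to -0.59.

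The genes whose pattern was most like the mean of the 9 over the 12 whole testis libraries were Mfsd1 and Ctsb of the lysosome, Trem2, a lipid receptor of macrophages, Icam1, an adhesion molecule, and Abhd3, with Pearson's r of 0.98 to 0.99. Those most like Aif1 over the same libraries were Hsdl2, Capza3, Gm11149, Prss52 and Actl9, also with r of 0.98 to 0.99. Capza3 and Actl9 are known as genes of spermatids. Over the 23 sorted libraries the genes most like Aif1 were Pdzk1, Dnaja4, Atp1a4, Vwa5b1 and Gm6772, with r of 0.99, where the difference between round spermatids and spermatocytes set most of the spread.

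In sorted cells the other 9 genes were at or near 0. C1qa had 1 count in all 23 libraries together and C1qc had 6. The highest library of the remaining genes had 13 counts for Cd163, 17 for Cd68, 36 for Lyz2, 37 for Cd14, 55 for C1qb, 85 for Csf1r and 109 for Mrc1. The summed level of the 9 was 0 to 3.00 CPM in sorted libraries, while Fcgr3 of the further macrophage genes held 38.8 to 296 CPM there. The part of any macrophages in the Aif1 level of sorted cells was not tested. A level of 3 counts corresponded to 0.0321 to 0.0654 CPM.

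In CTCF HET round spermatids 2 of 5 tested genes were called, beside 22.3% of all genes. These were Aif1 and Mrc1, and Mrc1 had 16 to 39 counts against 42 to 98 in WT (log2 fold change -1.37 ± 0.41, SE, edgeR adjusted p = 0.0421). With the replicate block only Aif1 was called, and without WT replicate 3, CTCF HET replicate 1 or CTCF HET replicate 3 neither was. In BORIS KO round spermatids 1 of 5 was called, beside 55.8% of all genes, namely Mrc1 with 18 to 40 counts (-1.47 ± 0.37, edgeR adjusted p = 0.00779). In spermatocytes, edgeR called 0 members in CTCF HET and 0 in the libraries labelled CM, where the background was 15.5% and 0.604%. In either, 0 had an unadjusted p below 0.05 and DESeq2 called 0, and in BORIS KO 1 of 5 was called, Aif1, beside 57.2%. Only 3 to 7 of the 10 genes passed the filter on low counts in a sorted comparison, and a gene that passed through the group where it is high had to differ.

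The C1q genes lie next to each other on the minus strand, C1qa at chr4:136451832-136454718, C1qc at chr4:136445719-136448980 and C1qb at chr4:136436044-136442102. No Pol2 or H3K4me3 peak lay within 1 kb of any of their starts in WT or CM, while their RNA was measured in every whole testis library. Of the WT CTCF peaks, 3 lay among them. The peak with its summit at -555 bp from the C1qa start had a height of 421 in WT (46.6th percentile) and was listed in CM with 159 (17.9th percentile). The peak between C1qc and C1qa, at -1076 bp from the C1qc start, had a height of 662 in WT (57.0th percentile) and overlapped no CM peak, and neither did the peak of height 876 beyond the end of C1qb. None overlapped a BORIS peak. The first and second of these are shown, as a site listed in both genotypes and one listed only in WT, in windows of 201 bases of the mm9 plus strand centred on the WT summit. Capitals mark the best match to the CTCF core motif, with 11 of 12 letters matched in each.
C1qa upstream, chr4:136455173-136455373: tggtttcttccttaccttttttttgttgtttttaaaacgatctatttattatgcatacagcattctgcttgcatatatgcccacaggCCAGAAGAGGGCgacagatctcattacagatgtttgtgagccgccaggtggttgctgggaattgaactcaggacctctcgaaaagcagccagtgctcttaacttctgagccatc
C1qc upstream, chr4:136449956-136450156: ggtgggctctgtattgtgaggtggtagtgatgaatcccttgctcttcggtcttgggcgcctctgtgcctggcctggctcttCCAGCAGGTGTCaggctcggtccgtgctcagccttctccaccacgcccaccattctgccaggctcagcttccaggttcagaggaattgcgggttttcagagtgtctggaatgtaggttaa

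Over all 10 genes, 8 WT CTCF peaks lay within 5 kb, of which 4 overlapped a CM peak by at least 1 base, against 56.1% of all WT CTCF peaks, and 1 overlapped a BORIS peak, against 17.5%. At promoters, CTCF was listed in WT for C1qa and C1qc (27.1% of all genes) and in CM for C1qa (9.59%), and BORIS for none of the 10 (13.8%). Whether the 2 CTCF immunoprecipitations of a genotype were pooled before peaks were called is not given in the sources used here, so the lists give no replicate check.

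Cd68 and Cd14 had Pol2 at their promoters only in the CM list. At Cd68 (chr11:69477715-69479655, minus strand) a Pol2 peak with a score of 446 (82.0th percentile) spanned the start, with no WT Pol2 peak overlapping it, and no H3K4me3 peak was listed within 1 kb of a start in either genotype. Its upstream neighbour Eif4a1 (chr11:69480438-69485925) ends 783 bp away and carried Pol2 in both genotypes. The CM peak at the Cd68 start (chr11:69478525-69480756) ran into the end of Eif4a1. The next CM Pol2 peak, with a score of 3100, began at 69480937 and covered the rest of that gene. The part of Eif4a1 in the peak at Cd68 was not tested. At Cd14 the CM lists held Pol2 with a score of 64.1 (19.9th percentile) and H3K4me3 with a score of 82.4 (23.3rd percentile), both over the gene and in the lower part of their lists. Altogether 3 of the 10 genes had a CM Pol2 peak at the promoter (47.3% of all genes) and 2 a CM H3K4me3 peak (57.2%).

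The remaining loci held little. Mrc1 (chr2:14151041-14253684) had 2 intronic CTCF peaks in WT with heights of 120 and 128. The first, with 12 of 12 core letters in its window, was also listed in CM with a height of 204, and the window at the second matched 8 letters at most. Lyz2 (chr10:116714390-116719377) had H3K4me3 beyond its end in both genotypes and Pol2 there in CM. Csf1r and Cd163 had no listed peak within 5 kb of the gene. Csf1r overlaps the end of Hmgxb3 on the other strand, and whether the counting used strand is not given in the sources used here.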

How the data were processed

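RNA of the germ cell-enriched whole testis preparation was sequenced on an Ion Proton after rRNA depletion. RNA of sorted round spermatids and spermatocytes was sequenced on an Illumina instrument after poly(A) selection, so CPM of the 2 preparations differ in library type. The authors deposited raw counts per gene, with reads aligned to mm9 (the submitters' processing notes name TopHat2, Bowtie2, STAR, Cufflinks 2.0.0 and DESeq2). The counting tool, annotation and strand setting are not given in the sources used here. The authors also deposited peak lists on mm9, with a peak height (signal) for CTCF and BORIS and a peak score of at least 50 for Pol2 and H3K4me3.

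Counts were scaled by TMM and tested gene by gene with edgeR 4.0.16 (quasi-likelihood F test, robust, filterByExpr with a minimum count of 10) in R 4.3.3, across all genes of a table, with only the groups compared in the fit. P-values were adjusted by the Benjamini-Hochberg method, and called means an adjusted p below 0.05. The scripts were checked on simulated counts. CPM were computed over all libraries of a table. The 10 genes and all lists were chosen with earlier results of these data known. Alternatives were DESeq2 1.42.0, RLE scaling, no count filter, the study's thresholds (adjusted p below 0.001 and a fold change above 2), a replicate block, a fit of all 4 genotypes together, each library left out and, for peaks, a 3 kb window, the upper 50% of peaks and the longest transcript's start. The text names the 10 genes, at most 4 genes per list with the smallest adjusted p in CM against WT whole testis, and the 5 genes most like each pattern. Of these, 1 gene is not reported here. The uncalled genes H2-DMa, H2-DMb1, Ciita, Tlr2 and Cd4, and Fcgr3, Tyrobp and the spermatid markers in sorted cells, were named after their values were seen. No column of per-sample values was left unused (0 columns).

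Promoters were 1 kb either side of a GENCODE vM1 start on NCBIM37 (mm9), and 21684 of 23284 table genes (93.1%) matched 1 gene by symbol. Deviations from the group means were correlated between same-numbered libraries of different genotypes. The correlation was above 0.1 in 18 of 18 whole testis pairs (0.12 to 0.63). It was above 0.1 in 4 of 18 pairs of round spermatids (-0.22 to 0.22) and 1 of 15 of spermatocytes (-0.12 to 0.15). Replicate numbers were therefore read as pairs in whole testis only, where some correlations lay close to that cutoff. The main whole testis fits left this pairing out, and it entered only the alternative with the replicate block. Fold changes, standard errors and calls given without mention of the block thus ignore the pairing. Replicates were separate preparations of 4 pooled mice in whole testis. For sorted cells the labels do not say so, and p-values there measure the spread between libraries, which may be technical. The depth of the ChIP-seq libraries is unknown here.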

Additional observations from a re-analysis of the deposited data

Results flagged for a closer look

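The difference in Aif1 between the libraries labelled CM and WT was not the same in both sorted cell types. In one fit over all sorted libraries, the log2 difference between libraries labelled CM and WT was lower in round spermatids than in spermatocytes by an interaction of -2.29 ± 0.56 (SE, edgeR adjusted p = 0.0153), in a test that called 1230 of 17314 genes. All 3 round spermatid libraries labelled CM lay below all 3 WT libraries (21.1 to 53.7 against 81.8 to 94.3 CPM). In spermatocytes 2 of the 3 libraries labelled CM lay above both WT libraries, and all were under 8 CPM. With each WT and CM library left out in turn, an alternative added after the data were seen, 8 of 11 fits kept an adjusted p below 0.05 and the interaction ran from -2.70 to -1.49. The call was lost without WT spermatocyte replicate 1 (edgeR adjusted p = 0.0699), WT spermatocyte replicate 2 (0.130) or replicate 3 of the spermatocytes labelled CM (-1.49, 0.0502), the library with 7.81 CPM of Aif1 and the highest spermatid marker sum among spermatocytes (122 CPM). The spermatid markers had the same sign: the interaction was below 0 for 8 of 8, with a median of -1.91, and 3 were called, Spaca1 (-3.08 ± 0.55), Acrv1 (-2.76 ± 0.59) and Gapdhs (-2.12 ± 0.46, log2, SE). The part of these markers in the Aif1 value was not tested. The same interaction was -0.66 for CTCF HET (edgeR adjusted p = 0.419) and -0.45 for BORIS KO (adjusted p = 1.00).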

How the results depend on the processing

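Over 622 alternative fold changes of the 10 genes, 502 kept their direction and their side of the threshold, 54 lost the call, 47 gained it and 19 changed sign. In CM against WT whole testis none changed sign. The sign changes lay in small log2 fold changes. For CTCF HET in whole testis, leaving out 1 library gave -0.30 to 0.016 for Aif1, -0.40 to 0.74 for Cd14, -0.73 to 0.21 for Lyz2, -0.14 to 0.33 for Mrc1 and -0.44 to 0.30 for Cd163, and Mrc1 was -0.024 with no count filter and -0.0015 with all genotypes in one fit. For BORIS KO it gave -0.17 to 0.077 for Aif1 and -0.32 to 0.67 for Lyz2 in whole testis, and -0.054 to 0.11 for Aif1 in round spermatids. For CTCF HET spermatocytes it gave -0.076 to 0.49 for Aif1.

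The number of the 10 genes called moved more. At the study's thresholds, with edgeR, it was 0 in place of 8 for CM against WT (6 by DESeq2 and 6 with the block) and 0 in place of 6 for CM against CTCF HET in whole testis (4 and 7), 0 for round spermatids of CTCF HET, 0 for those of BORIS KO, 0 for BORIS KO spermatocytes, and 1 in place of 4 for WT round spermatids against spermatocytes. With the replicate block it was 1 in place of 0 for BORIS KO and 8 in place of 0 for CM against BORIS KO in whole testis, and 1 in place of 2 for CTCF HET round spermatids, where numbers do not pair the libraries. In whole testis the block also added Aif1 and Lyz2 to the calls of CM against WT. DESeq2 called 1 for BORIS KO and 8 for CM against BORIS KO in whole testis and 1 for round spermatids labelled CM. With all genotypes in one fit it was 0 for CTCF HET and 0 for BORIS KO round spermatids, 1 for CM round spermatids, 1 for CTCF HET spermatocytes and 0 for BORIS KO spermatocytes. Leaving out 1 library gave 0 to 9 in whole testis for CM against WT, CTCF HET and BORIS KO, 0 to 2 for CTCF HET, 1 to 2 for BORIS KO and 0 to 1 for CM round spermatids, 0 to 1 for CTCF HET and 0 to 2 for BORIS KO spermatocytes, and 1 to 5 for WT round spermatids against spermatocytes. A group left with 1 WT spermatocyte library was assumed to vary like the other group. The cause of these shifts was not tested.

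At promoters, the upper 50% of peaks gave 1 gene for WT CTCF, 0 for CM CTCF and 1 for CM H3K4me3. A 3 kb window gave 2 for CM CTCF, 1 for BORIS, 2 for WT Pol2 and 2 for WT H3K4me3. Low counts limit what can be read for Cd68 and Cd14 in whole testis. The same holds for all genes but Aif1 in sorted cells, although the sorted libraries were the deeper ones.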

Other observations

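The 3 C1q chains did not keep one ratio of counts between replicate numbers. In replicate 1 of whole testis, C1qb had 2.82 counts per count of C1qa in WT and 3.52 in CM, with 3.71 for CTCF HET and 2.15 for BORIS KO. In replicates 2 and 3 it was 1.38 to 1.94 over all genotypes. The ratio of C1qc to C1qa was 1.57 to 2.01 in replicate 1 and 1.04 to 1.57 in the others, and in BORIS KO replicates 1 and 3 it was the same to 3 digits. In every genotype the C1qb ratio was highest in replicate 1, and the genotypes overlapped. Replicate 1 was also the deepest whole testis library of every genotype. It held 27558314 to 42055813 counts, against 10437683 to 17383794 in replicates 2 and 3. The part of depth in these ratios was not tested.

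Other values concern single sorted libraries. Mrc1 had 109 counts in replicate 2 of the round spermatids labelled CM, and 5 and 0 in the other libraries labelled CM. In spermatocytes CTCF HET replicate 2 held 64 counts of Mrc1 and 94 of Ctcfl, while both other CTCF HET libraries held 0 of each. Few genes had a count in these libraries, 12018 to 13406 in CTCF HET spermatocytes against 17631 and 17683 in WT. In round spermatids it was 14932 to 16670 in those labelled CM against 17504 to 17985 in WT. The part of this difference in the single values was not tested.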
